A study of Mus musculus and Homo sapiens with 41 samples.

Results

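The Hoxa and Meis/Pbx progenitor factors are 9 transcription factors and cofactors of immature blood cells, and they were followed here by RNA-seq in a study of PLZF, the zinc finger repressor encoded by Zbtb16. They are Hoxa5, Hoxa7, Hoxa9, Hoxa10, Meis1, Pbx3, Mecom, Hlf and Mllt3, matched by gene symbol. All 9 were listed among the 53756 rows of the granulocyte-monocyte progenitor (GMP) table, and 7 among the 13238 genes of the 416b table. Hoxa9 and Hoxa10 are not listed for 416b cells and no value is given for them there.

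GMPs are bone marrow progenitors committed to neutrophils and monocytes. Bone marrow of C57BL/6 WT mice, or of C57BL/6 mice homozygous for the luxoid mutation of Zbtb16 (Zbtb16 lu/lu), had been transplanted into lethally irradiated Cd45-1 recipients, so both groups had gone through transplantation. The GMPs were sorted as lineage-negative, C-kit+, Sca-1-, Cd34+ and FcγR+ cells. The table holds 2 libraries per genotype, whereas the labels give 1 sample per genotype and the study's methods name a number of independent RNA extractions that differs from both. The columns were taken as separate libraries, and every GMP interval and p-value rests on this. The number of mice behind each library and their age are not given in the sources used here, so p-values measure the spread between these libraries, which may be technical. 416b is a mouse myeloid Cd34+ cell line. It was transduced with a lentivirus carrying PLZF-Flag and GFP or with an Empty vector carrying GFP, and GFP+ cells were sorted, with 1 library per condition. The other samples of the series, of which there are 41 in all, were not analysed here.

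As background, Hoxa proteins are homeodomain factors that bind DNA together with the TALE homeodomain proteins Meis1 and Pbx3. In haematopoietic stem and early progenitor cells this group sustains self-renewal, and its transcripts decline as myeloid cells mature. Transcription of the posterior Hoxa genes depends on the MLL (Kmt2a) methyltransferase and on the DOT1L complex, to which Mllt3 belongs. Mecom (Evi1) and Hlf are factors of the stem cell compartment, and forced expression of several of these genes immortalises myeloid progenitors.

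All 9 genes lie on the minus strand of their chromosome in the GENCODE M21 annotation of mm10. The Hoxa members are neighbours on chromosome 6, with Hoxa5 at chr6:52201754-52204587, Hoxa7 at chr6:52214491-52221854, Hoxa9 at chr6:52223100-52231089 and Hoxa10 at chr6:52231197-52240854. Meis1 lies at chr11:18879817-19018985 and Hlf on the same chromosome at chr11:90336536-90390895. Pbx3 is at chr2:34171457-34373142, Mecom at chr3:29951296-30548008 and Mllt3 at chr4:87769925-88033364. Exons of Hoxa7 overlap those of the antisense gene Hoxaas3 over 586 bases, and exons of Meis1 overlap the antisense gene Gm16140 over 896 bases and Gm37818 on the same strand over 1029 bases. The exons of Hoxa9 contain the 85 bases of Mir196b, and Mecom shares 81 bases with the antisense gene Mecomos. The strand setting of the counting and the handling of reads shared by overlapping genes are not stated. How reads of these overlaps were counted is therefore not known.

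Sequence windows around the RefSeq start of transcription (GRCm38.p6, 250 bases before to 50 after it) were found for 8 of the 9 genes, in 11 windows. Those of Hoxa9 and Meis1 are shown because these genes encode the central partners of the complex and were among the most abundant members in GMPs. The Hoxa9 window lies on the minus strand at chr6:52227321-52227620 and that of Meis1 on the minus strand at chr11:19018920-19019219. Capitals mark GGGCGG, the core of an Sp1 site, in Hoxa9 and CCAAT, the box bound by NF-Y, in Meis1.
Hoxa9: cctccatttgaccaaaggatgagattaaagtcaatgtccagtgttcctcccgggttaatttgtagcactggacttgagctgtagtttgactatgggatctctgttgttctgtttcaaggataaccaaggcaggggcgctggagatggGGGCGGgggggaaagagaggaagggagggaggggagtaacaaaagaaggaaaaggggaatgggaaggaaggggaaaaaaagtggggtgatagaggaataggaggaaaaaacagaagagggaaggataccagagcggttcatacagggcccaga
Meis1: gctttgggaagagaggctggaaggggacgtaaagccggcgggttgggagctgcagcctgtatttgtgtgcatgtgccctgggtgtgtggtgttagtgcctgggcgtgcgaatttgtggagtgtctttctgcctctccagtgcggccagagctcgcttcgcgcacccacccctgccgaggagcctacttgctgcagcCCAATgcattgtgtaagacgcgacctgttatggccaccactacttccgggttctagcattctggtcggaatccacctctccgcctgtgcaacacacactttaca
Searched on both strands, GGGCGG was found in 5 of the 11 windows of the members and in 35.7% of all 32851 promoter windows, and CCAAT in 6 of 11 and in 37.4%. The Meis core TGACAG was found in 2 of 11, 1 window each of Mecom and Mllt3, and in 19.2% of all. The Hox/Pbx composite TGATTNAT was in 0 of 11 and in 3.22% of all, and TTACGTAA, the palindrome bound by PAR bZIP factors such as Hlf, was in 0 of 11 and in 0.119%. A match of letters is no evidence of binding.

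The miRNA miR-196b is transcribed from within Hoxa9 (chr6:52230129-52230150, minus strand) and is known to target Hox transcripts. Its mature 5p sequence is shown with the seed, bases 2 to 8, in capitals, followed by 3′ UTR stretches of the members that hold the match to the seed, ACTACCT, in capitals.
mmu-miR-196b-5p: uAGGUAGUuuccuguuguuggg
Hoxa5: atatttttattcaaACTACCTa
Hoxa7: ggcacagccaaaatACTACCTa
Hoxa7: agaggcactcccaaACTACCTa
Hoxa7: aaaccatgatcaatACTACCTa
Hoxa7: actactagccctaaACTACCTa
Hoxa9: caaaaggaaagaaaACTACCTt
Pbx3: tagagcgctcacttACTACCTc
The match stands in the 3′ UTR of 4 of the 9 members and of 7.72% of 21166 genes with a 3′ UTR in GENCODE M21. Among all 39 Hox genes it stands in 9. The mature miRNA was not measured by these libraries.

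The values below are normalised read counts, made by the authors from featureCounts counts on mm10 with a DESeq2 size factor for every library. Their totals lie between 38562939.7 and 40130729.8 in the GMP libraries and are 33000337.1 and 33041050.1 in the 416b libraries. Zbtb16 had 705 and 828 normalised read counts in the WT libraries and 269 and 369 in the Zbtb16 lu/lu libraries, a log2 fold change of -1.28 (SE 0.20, limma adjusted p = 0.299). In 416b cells it had 382 with the Empty vector against 2541 with PLZF-Flag. The GMP marker Mpo was at 477325 to 552003 in the GMP libraries. In 416b cells markers of several lineages were mixed. Of the 11 GMP markers 10 were listed, with Mpo at 12.1 and 3.3 and Csf1r at 53.3 and 54.5, but with Cebpa (2673 and 2313), Ctsg (2318 and 1676), Kit (6434 and 7267) and Cd34 (11059 and 8823) abundant. Elane, the neutrophil elastase gene, was not listed. Of the 7 megakaryocyte markers 5 were listed, from Vwf (131 and 129) and Ppbp (149 and 139) to Pf4 (5769 and 5033) and Itga2b (22446 and 22145), and of the 10 erythroid markers 8 were, with Car2 at 70076 and 67811 and Gata1 at 15.1 and 43.0.

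The libraries of WT GMPs differed from each other. WT library 2 held more megakaryocyte RNA, with 6100 summed normalised read counts over 7 marker genes against 2220 in WT library 1, and 3290 and 1730 in the Zbtb16 lu/lu libraries. Of that list, 5 genes were highest there, among them Pf4 (216 and 1306 in WT, 486 and 96.6 in Zbtb16 lu/lu) and Vwf (234 and 1580, 542 and 180). The 10 erythroid markers summed to 1370 and 3640 in WT and to 2720 and 1350 in Zbtb16 lu/lu. The 10 mature neutrophil markers summed to 14200 and 6470 in WT and to 21000 and 10500 in Zbtb16 lu/lu, and 6 of them were higher in both Zbtb16 lu/lu libraries than in both WT libraries, where 21.7% of all tested genes were. The 9 monocyte and macrophage markers summed to 76500 and 92000 in WT and to 110000 and 104000 in Zbtb16 lu/lu. All 9 were higher in WT library 2 than in WT library 1, and 7 were higher in both Zbtb16 lu/lu libraries than in both WT libraries. Of the 11 GMP markers 5 were higher without overlap in Zbtb16 lu/lu, with sums of 794000 and 785000 in WT and of 907000 and 892000. Csf1r is in both of these lists. Hoxa5, Hoxa7 and Hoxa9 were also higher without overlap, as part of the neutrophil, monocyte and GMP markers was. The sum of the 8 mast cell, basophil and eosinophil markers was highest in WT library 1, at 22700 and 15500 in WT and 16900 and 12400 in Zbtb16 lu/lu. The 11 stem cell and multipotent progenitor markers summed to between 3910 and 4700. No marker of these 7 lists was at 0 in all 4 libraries. The part of these cells in the values of the member genes was not tested, and fewer cells of a type cannot be told apart from less RNA per cell.

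Levels of the members were compared within a library as normalised read counts per kb of exon. In WT GMPs Hoxa7 (105 and 160 per kb), Hoxa9 (109 and 142) and Meis1 (83.3 and 116) were the highest, and each neighbouring pair of the 3 overlapped between libraries. Mllt3 (32.3 to 40.8), Hlf (31.1 to 34.1), Pbx3 (22.5 to 28.3) and Hoxa5 (21.2 to 24.1) formed a middle range. Within it, Mllt3 overlapped Hlf and Pbx3 overlapped Hoxa5, while Hlf lay above Pbx3. Hoxa10 (3.35 and 10.6) and Mecom (4.40 and 8.54) were lowest and overlapped. In Zbtb16 lu/lu GMPs the order also ran from Hoxa7 (171 and 181) through Hoxa9 (156 and 157) to Meis1 (84.3 and 88.9), with no overlap among the 3, and Hoxa10 (7.37 and 15.1) and Mecom (5.01 and 6.04) were again lowest. The order depended on the length used. With that of the longest transcript in place of all exons, Hoxa9 (189 and 245) had a higher mean than Hoxa7 (148 and 227) in WT, with overlap, and stood above it without overlap in Zbtb16 lu/lu (270 and 271 against 243 and 256). Pbx3 (48.0 and 60.4) then stood above Hlf (36.8 and 40.3) in WT, also without overlap, and no longer overlapped Hoxa5.

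The members had another order in 416b cells. Meis1 was highest at 366 per kb in Empty vector and 375 in PLZF-Flag. Pbx3 followed with 158 and 171, and Mecom with 133 and 139. Mllt3 (23.8 and 21.7) and Hoxa5 (19.3 and 13.2) were lower, and Hoxa7 (2.74 and 2.87) and Hlf (0.815 and 1.24) rested on 5 to 13 reads per library. The 2 tables were normalised separately and their libraries were made with different kits, so levels were set side by side only as percentiles among the genes listed in both tables. Mecom stood at the 9.48 and 12.3 percentile in WT GMPs and at 40.9 and 42.0 in 416b cells. Meis1 stood at 30.9 and 35.1 and at 63.6 and 64.2, and Pbx3 at 18.3 and 19.2 and at 44.2 and 46.2. Hoxa7 went the other way, from 34.2 and 41.3 in GMPs to 8.61 and 8.98, and Hlf from 20.6 in both WT libraries to 4.18 and 5.37. Hoxa5 and Mllt3 held similar ranks in both. These differences between a sorted cell and a line have 1 library per 416b condition and were not tested.

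**Figure D1:**
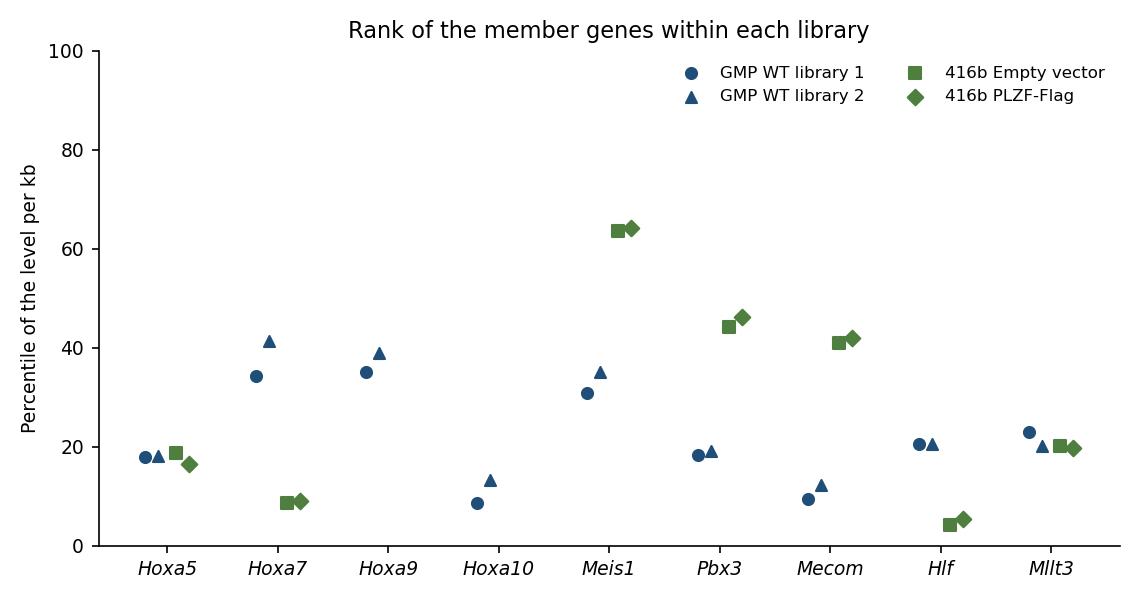
Percentile of each member's normalised read count per kb among genes listed in both tables (y axis) for the WT GMP libraries (blue) and the 416b libraries (green). Meis1, Pbx3 and Mecom rank higher in 416b cells, and Hoxa7 and Hlf rank higher in GMPs. Hoxa9 and Hoxa10 have no 416b value.

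The Hox clusters as a whole showed which Hox genes accompanied the members. Of the summed level per kb of the 39 Hox genes, the Hoxa cluster made up 74.8% and 78.0% in WT GMPs, 80.1% and 77.0% in Zbtb16 lu/lu GMPs, while the Hoxb cluster took between 17.8% and 22.5%. Of the 18 genes of the Hoxc and Hoxd clusters, 0 reached a normalised read count of 10 in any GMP library. In 416b cells the Hoxc cluster made up 68.0% in Empty vector and 72.8% in PLZF-Flag, and the Hoxa cluster 6.42% and 4.48%. Hox genes not listed for 416b cells were counted at 0 there, so these shares cover the listed genes.

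**Figure D2:**
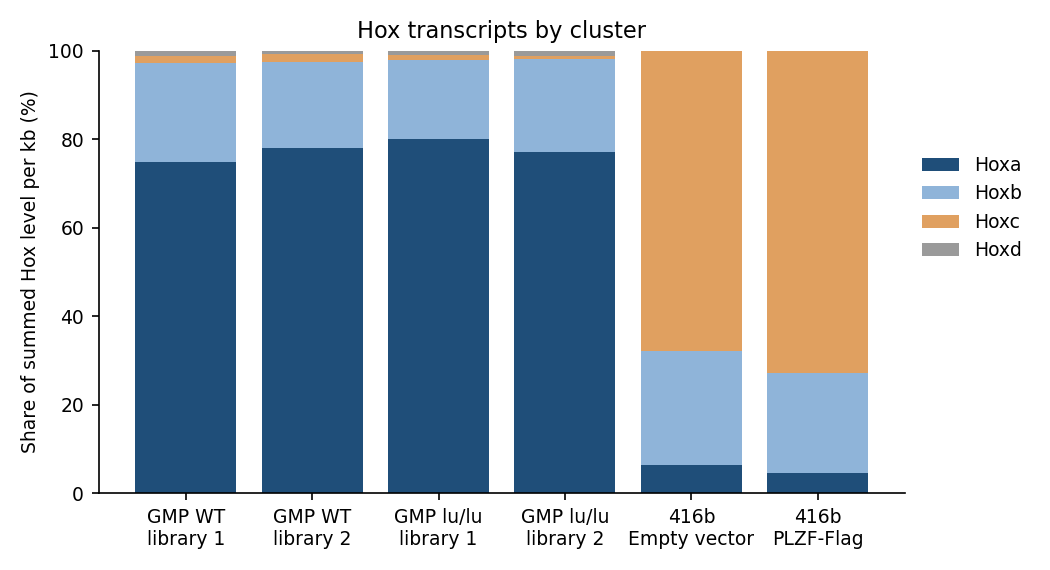
Share of the summed normalised read count per kb of 39 Hox genes (y axis, percent) taken by each Hox cluster in the 4 GMP and the 416b libraries. Hoxa genes take 74.8% to 80.1% in GMPs, and Hoxc genes 68.0% and 72.8% in 416b cells.

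Whether loss of PLZF function changes these genes in GMPs was asked by comparing the genotypes. The Hoxa members had higher mean values in Zbtb16 lu/lu and the Meis/Pbx, Mecom, Hlf and Mllt3 members lower ones, but no member passed the test. With limma on log2(normalised read count + 1), 0 of the 9 members had an adjusted p under 0.08, and 0 had an unadjusted p under 0.05. Among all 20531 genes tested the share called was 0% at the adjusted threshold and 9.88% at an unadjusted p under 0.05. The paper, from its own comparison of these genotypes, reports a slight effect on expression, with genes changed in both directions. That comparison was not used here, and the reason for the different outcome was not tested. The share of 0% is that of the limma fit and does not show that no gene differs. All 9 members passed the low-value filter, which asked for 10 or more in 2 or more libraries. Adjusted p-values of the members ran from 0.545 to 0.910. Zbtb16 itself did not pass, at a log2 fold change of -1.28 and a limma adjusted p of 0.299, which was also the smallest of all tested genes. A member that did not pass is therefore not shown to be unchanged. With 2 libraries against 2, an exact two-sided permutation test of a single gene cannot give a p below 0.333.

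The Hoxa genes are described first. Hoxa9, the Hox gene most often linked to myeloid self-renewal, had 609 and 791 normalised read counts in WT and 875 and 872 in Zbtb16 lu/lu. The libraries of the genotypes did not overlap, and the log2 fold change was 0.33 (95% interval -0.05 to 0.71, limma adjusted p = 0.546). Hoxa7, its neighbour, had 301 and 461 in WT and 493 and 520 in Zbtb16 lu/lu. This gave 0.44 (-0.07 to 0.95, limma adjusted p = 0.545), again without overlap. Its antisense partner Hoxaas3 had 124 and 197 in WT and 186 and 228 in Zbtb16 lu/lu, which overlapped.

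Hoxa5, a more anterior gene of the cluster, was lower throughout, with 39.8 and 45.3 in WT and 53.2 and 57.6 in Zbtb16 lu/lu. Its log2 fold change was 0.37 (-0.45 to 1.20, limma adjusted p = 0.734). Hoxa10, a regulator of myeloid progenitors next to Hoxa9, had 10.9 and 34.7 in WT and 24.1 and 49.3 in Zbtb16 lu/lu. Its libraries overlapped, and the fold change of 0.78 had an interval from -0.68 to 2.25 (limma adjusted p = 0.684).

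**Figure D3:**
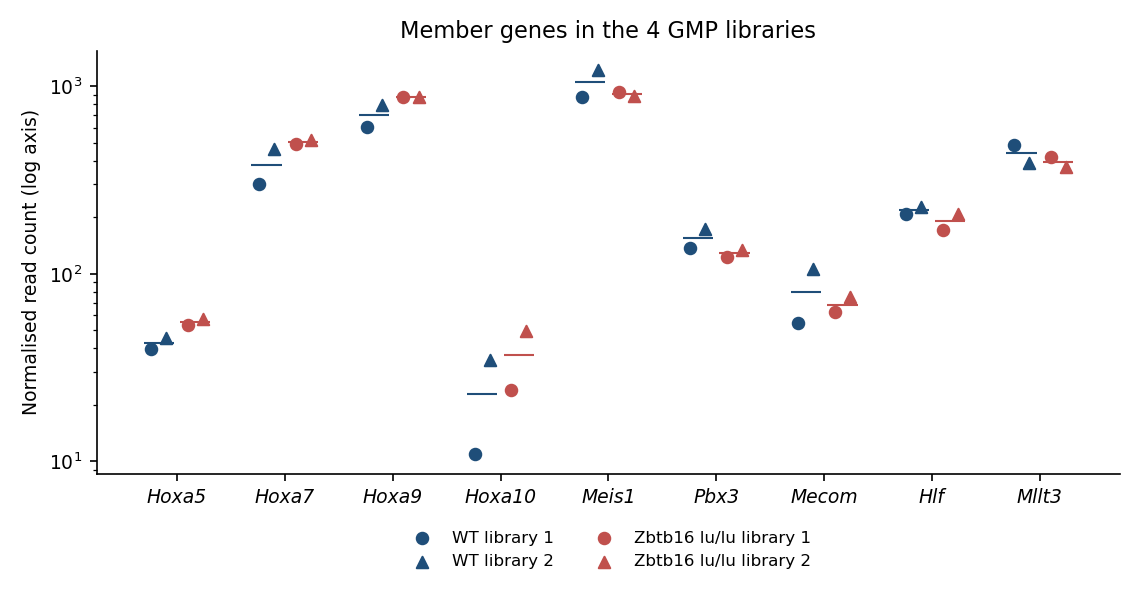
Normalised read counts (log axis) of the 9 members in each GMP library, WT in blue and Zbtb16 lu/lu in red, with short lines at the means of 2 libraries. Hoxa5, Hoxa7 and Hoxa9 have both Zbtb16 lu/lu points above both WT points, Pbx3 has both below, and the other 5 overlap.

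Meis1, which stabilises Hox proteins on DNA, had 877 and 1222 in WT and 936 and 888 in Zbtb16 lu/lu. The high value was that of WT library 2, the genotypes overlapped, and the log2 fold change was -0.18 (95% interval -0.59 to 0.22, limma adjusted p = 0.736). Pbx3, the shared partner of both, had 137 and 173 in WT and 123 and 134 in Zbtb16 lu/lu. It was the member with both mutant libraries below both WT libraries, with a fold change of -0.26 (-0.84 to 0.32, limma adjusted p = 0.737).

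Mecom, a zinc finger factor of stem cells, had 54.7 and 106 in WT and 62.2 and 75.0 in Zbtb16 lu/lu, so that both mutant values lay between the WT values. Hlf, a PAR bZIP factor, had 208 and 228 in WT and 172 and 210 in Zbtb16 lu/lu. Mllt3 (AF9), the reader of acetylated histone H3 in the super elongation complex, had 489 and 388 in WT and 417 and 369 in Zbtb16 lu/lu. All 3 overlapped between genotypes, with log2 fold changes of -0.16, -0.20 and -0.15 and limma adjusted p-values of 0.910, 0.775 and 0.801.

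Without overlap between genotypes, 3 of the 9 members were higher in Zbtb16 lu/lu, where 21.7% of all tested genes were, and 1 was lower, where 22.1% of all were. The 3 were Hoxa members. These 3, and Pbx3, which went the other way, are also the members with a match to the miR-196b seed. This was seen after both were known and was not tested, and the mature miRNA was not measured. The median log2 fold change was -0.15 over the members and -0.01 over all tested genes.

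**Figure D4:**
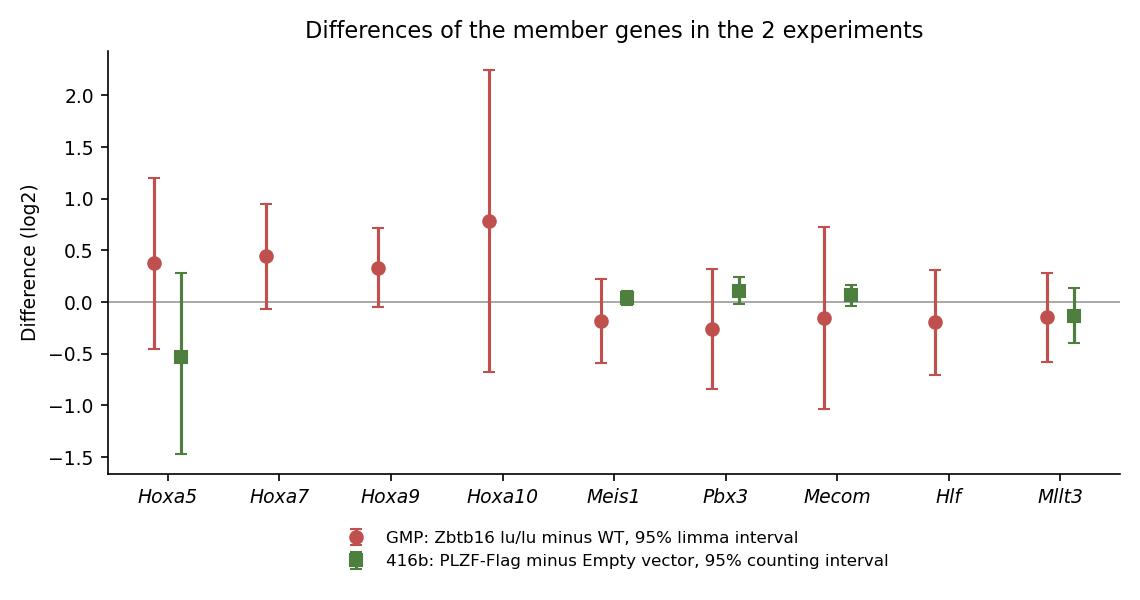
Log2 differences of the members, as Zbtb16 lu/lu minus WT in GMPs (red, 95% limma intervals, 2 libraries per genotype) and PLZF-Flag minus Empty vector in 416b cells (green, 95% counting intervals, 1 library each, genes with a mean of at least 10). Every interval includes 0.

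The gap between the WT libraries was wider than the difference between genotypes in 7 of the 9 members, and in 61.4% of all tested genes. In 8 of the 9 members, all but Mllt3, WT library 2 was higher than WT library 1, where 49% of all tested genes were. WT library 1 was the lowest of the 4 libraries for 6 members and for 25.7% of all tested genes. The members' median difference between these libraries was 0.38 on the log2 scale and that of all tested genes was -0.01. The widest gaps were those of Hoxa10 (1.58) and Mecom (0.94). The table dates its columns, and 1 date is shared by both genotypes, WT library 1 and Zbtb16 lu/lu library 2. What the date marks is not stated.

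On the shared date the 4 Hoxa members were higher in the Zbtb16 lu/lu library, by 0.52 for Hoxa5, 0.79 for Hoxa7, 0.52 for Hoxa9 and 2.08 for Hoxa10 on the log2 scale. Meis1, Pbx3 and Hlf differed there by 0.02, -0.04 and 0.01, Mecom by 0.45 and Mllt3 by -0.41. Between the libraries of the other dates the Hoxa members differed by 0.23, 0.10, 0.15 and -0.51. Meis1 differed there by -0.38, Pbx3 by -0.48, Mecom by -0.76 and Hlf by -0.41. Mllt3 differed by 0.11. WT library 2, with its high megakaryocyte and erythroid marker sums, takes part in the second of these comparisons, and WT library 1, with its high mast cell, basophil and eosinophil marker sum, in the first.

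**Figure D5:**
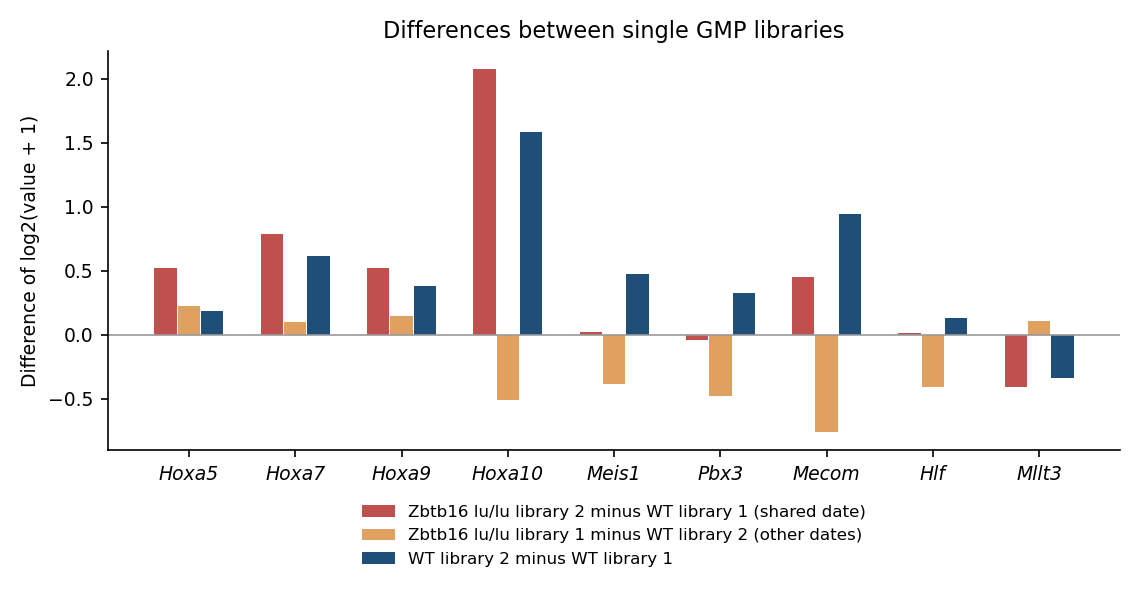
Differences of log2(normalised read count + 1) between single GMP libraries for each member. Red bars are the pair of the shared date, orange bars the pair of other dates, and blue bars the WT libraries against each other. The red and orange bars point in opposite directions for 5 of the 9 members, Hoxa10, Meis1, Mecom, Hlf and Mllt3.

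Leaving out WT library 1 or 2 changed which members passed. Without WT library 1, Meis1 passed, with a log2 fold change of -0.42 (limma adjusted p = 0.015), and Mecom was at -0.63, Pbx3 at -0.42, Hoxa7 at 0.13 (adjusted p = 0.614) and Hoxa9 at 0.14 (adjusted p = 0.516). Without WT library 2, Hoxa7 (0.75, limma adjusted p = 0.00061), Hoxa9 (0.52, adjusted p = 0.0063) and Hoxa10 (1.57, adjusted p = 0.044) passed, and Meis1, Mecom and Pbx3 were at 0.06, 0.32 and -0.09. These fits have 1 residual degree of freedom, the remaining WT library is assumed to vary like the Zbtb16 lu/lu pair, and 4662 and 2749 of all genes passed against 0 with all 4 libraries, so their adjusted p-values are not reliable and serve only to show how the values move. Without Zbtb16 lu/lu library 1 or 2 each member kept its direction, but sizes moved. Hlf was at -0.052 without library 1 and at -0.34 without library 2, and Hoxa10 at 1.29 and 0.28.

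The pathway around the members was described by 139 genes in 8 lists, of which 82 were tested and 0 passed (smallest limma adjusted p = 0.315). At an unadjusted p under 0.05 there were 11, of which 7 were higher and 4 lower in Zbtb16 lu/lu. That is 13.4% of those tested, near the 9.88% of all genes. Among 7 tested TALE factors and partners, 3 were higher at that level. Pbx4, a Pbx paralog, had 105 and 108 in WT and 186 and 194 in Zbtb16 lu/lu (log2 fold change 0.83). Pbxip1, which binds Pbx proteins, had 1136 and 1118 against 1440 and 1637 (0.45), and Tgif1 had 1549 and 1333 against 1797 and 1895 (0.36). Pbx2 (1953 to 2294) and Pknox1 (1928 to 2349) were abundant in all 4 libraries.

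Of the 26 tested genes of the MLL, DOT1L and super elongation complexes, 12 were lower and 2 higher without overlap between genotypes, against 22.1% and 21.7% of all tested genes, with a median log2 fold change of -0.09. At an unadjusted p under 0.05, 3 were lower. Ell2, an elongation factor, had 391 and 337 in WT and 261 and 208 in Zbtb16 lu/lu (-0.64). Cdc73 of the PAF complex differed by -0.32 and Ccnt1, the cyclin of P-TEFb, by -0.30. At the upper end were Mllt6 (0.24) and Ell (0.23). Kmt2a (-0.14), Men1 (0.10) and Dot1l (-0.05) overlapped between genotypes.

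The relatives of Mecom and Hlf included Prdm16, the closest paralog of Mecom, with 117 and 83.9 in WT and 212 and 160 in Zbtb16 lu/lu (log2 fold change 0.89, limma adjusted p = 0.428). Dbp, a PAR bZIP paralog of Hlf, had 186 and 202 against 280 and 256 (0.47), while Nfil3 (-0.08) was at the lower end. Of the 5 tested relatives 3 were higher without overlap, where 21.7% of all tested genes were.

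Other stem and progenitor factors had 17 tested genes, with a median of -0.15. Lyl1 (0.32) was higher and Ikzf2 (-0.44) lower at an unadjusted p under 0.05. Erg (0.21), Gata2 (-0.27), Mycn (-0.50) and Gfi1b (-0.80), a factor of erythroid and megakaryocyte cells, did not reach it. Of 18 tested genes known to be bound or driven by Hoxa9 and Meis1, Lyz2 (4398 and 5574 in WT, 8992 and 7260 in Zbtb16 lu/lu) and Sox4 (2000 and 2782, 3189 and 3194) were higher at that level. Flt3 (442 and 740, 952 and 733) overlapped, as did Pim1, at 6884 in WT library 1 and 2012 to 2422 in the other 3. Trib2 was at 54.7 and 55.0 in WT and 53.2 and 13.4 in Zbtb16 lu/lu.

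Of the other Hox genes, 3 of the Hoxa cluster and 3 of the other clusters passed the filter. Hoxa4 had 23.9 and 5.8 in WT and 29.1 and 31.9 in Zbtb16 lu/lu, Hoxa6 22.1 to 29.8 over all libraries, and Hoxa3 had 17.9 and 52.1 against 26.1 and 38.0. Hoxb4, a stem cell Hox gene, had 166 and 173 against 171 and 221, Hoxb3 had 45.7 and 45.3 against 58.2 and 109, and Hoxb2 was at 20.3 to 32.9. The smallest limma adjusted p among the 6 was 0.536.

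Whether added PLZF changes the members was asked in 416b cells. Of the 5 members with a mean of at least 10, 0 differed by 1.5-fold or more, where 4.8% of 11836 such genes did, 1.69% upward and 3.11% downward. Meis1 had 3851 normalised read counts with the Empty vector against 3953 with PLZF-Flag, or 0.04 as a log2 ratio (95% exact binomial interval -0.03 to 0.11, from 6363 and 2393 reads). Pbx3 had 968 and 1046, a ratio of 0.11 (-0.02 to 0.25). Mecom had 1656 and 1732, a ratio of 0.06 (-0.04 to 0.17).

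Mllt3 had 286 and 261 (-0.13, -0.40 to 0.13). Hoxa5 had 36.3 and 24.8, a log2 ratio of -0.53 resting on 60 and 15 reads, with an interval from -1.47 to 0.28. Hoxa7 (7.9 and 8.3) and Hlf (5.4 and 8.3) lay under the minimum. Only counting error is in these intervals, and since each condition has 1 library the conditions were not tested against each other. The median log2 ratio of all genes was -0.00014 and that of the 5 members 0.04. Of the Hoxb, Hoxc and Hoxd list, 6 genes had a mean of at least 10 in 416b cells and all 6 stayed within 1.5-fold, as did all 26 genes of the MLL, DOT1L and super elongation complexes.

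Genes with levels most like those of a member were sought by the Euclidean distance of log2(normalised read count per kb + 1) over the 6 libraries, among 12909 genes listed in both tables. Nearest to Meis1 were Pank1 (distance 0.30), Lockd (0.39) and Peli1 (0.41). Nearest to Mecom were Ttc39b (0.75), March9 (0.78) and Lrrn4 (0.80). Hoxa9 has no 416b value, and over the 4 GMP libraries alone, a choice made after seeing the table, Zbed3 (0.09), Atg14 (0.12) and Gm12703 (0.16) were nearest among 20003 genes.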

How the data were processed

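RNA-seq tables of GMPs (2 libraries per genotype) and 416b cells (1 per condition) were analysed. The deposited signal values are normalised read counts, for which the authors used Subread on mm10, featureCounts (1.5.0 per the labels) and DESeq2 size factors. The deposited log2 values and the p-value columns of the authors' comparison were not used. GMP depth in reads is not stated. In 416b cells, reads were recovered (54529788 and 19995754, with 84.8% and 85.5% of values whole within 0.05).

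GMP genes at 10 or more in 2 or more libraries were compared by limma 3.58.1 with an intensity trend on log2(value + 1), with Benjamini-Hochberg adjustment over all tested genes and a threshold of 0.08. The planned edgeR and DESeq2 count tests of GMPs were not run, because the values are normalised and reads were not accepted as recovered. The fit was also run on simulated data, a check of the code whose outcome is not reported here. Log2 ratios of 416b cells used a pseudocount of 1 and 95% Clopper-Pearson intervals. Lengths came from GENCODE M21. Same-genotype libraries differed beyond sampling noise, with a mean chi-square per gene of 44.3 for WT and 11.5 for Zbtb16 lu/lu.

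The members and lists were chosen with earlier results of these data known. Named from each list are the 2 highest and 2 lowest log2 fold changes, set genes of interest, and genes at an unadjusted p under 0.05, of which some are not reported here. Alternatives tried were pseudocounts of 0.1 and 10, no filter or a mean of 100 or more, equal totals, quantile normalization, length and GC offsets, no trend, a threshold of 0.05, each library left out, and for 416b total reads, edgeR 4.0.16 TMM scaling and 2-fold. Scripts ran in Python 3.11.15 (pandas 2.3.3, scipy 1.17.1) and R 4.3.3.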

Additional observations from a re-analysis of the deposited data

How the results depend on the processing

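Under no filter, pseudocounts of 0.1 and 10, equal library totals, quantile normalization, length and GC offsets, no intensity trend and a threshold of 0.05, 0 members were called and each tested member kept its direction. The length and GC offsets moved Meis1 from -0.18 to -0.063, Pbx3 from -0.26 to -0.094, Mecom from -0.16 to -0.10 and Mllt3 from -0.15 to -0.015. A mean of at least 100 also called 0 and removed Hoxa5, Hoxa10 and Mecom. With each library left out, 0 to 3 members and 0 to 19 list genes were called. With WT libraries left out in turn, the log2 fold change ran from -0.0073 to 1.57 for Hoxa10, from -0.42 to 0.056 for Meis1, from -0.63 to 0.32 for Mecom and from -0.32 to 0.018 for Mllt3, so these 4 changed direction, Hoxa10 and Mllt3 without WT library 1 and Meis1 and Mecom without WT library 2. On the shared date alone, Meis1 (0.018), Mecom (0.45) and Hlf (0.013) were reversed, as values with no test. The order of levels in WT kept 3 of 9 positions with the longest transcript, 5 in WT library 1 alone and 7 in WT library 2 alone. In 416b cells 0 members passed 1.5-fold under scaling by total reads, edgeR TMM scaling, both pseudocounts, no filter or 2-fold. The cause of these changes was not tested. The edgeR and DESeq2 fits of GMPs were not run. No paired analysis was possible because the genotypes share 1 library date only. Low counts limit Hoxa5, Hoxa10 and Mecom in GMPs and Hoxa5, Hoxa7 and Hlf in 416b cells.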

Other observations

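Noncoding genes of the Hoxa and Meis1 loci were tested in GMPs where they passed the filter, which 3 of 15 did. Hoxaas3 was the most abundant of the 3. Hotairm1, transcribed from the anterior end of the Hoxa cluster and known from myeloid cells, had 10.9 and 28.9 normalised read counts in WT and values between these, the higher being 12.3, in both Zbtb16 lu/lu libraries, so the genotypes overlapped. Gm28308 had 5.0 and 18.3 against 9.0 and 15.4. Like 8 of the 9 members, both were higher in WT library 2 than in WT library 1, as was Hoxaas3.

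In 416b cells, 73 list genes had a mean of at least 10 and 5 differed by 1.5-fold or more, 6.85% of them against 4.8% of all such genes, so the share is near the background. Mycn, a Myc family gene of stem cells, was at 648 with the Empty vector against 1026 with PLZF-Flag (log2 ratio 0.66, 95% exact binomial interval 0.52 to 0.81). The other 4 were lower in PLZF-Flag. Lyz2, the lysozyme gene of myeloid cells, was at 553 and 335 (-0.72, -0.95 to -0.50), and Id2, an inhibitor of bHLH factors, at 251 and 147 (-0.77, -1.12 to -0.44). The chemokine gene Ccl3 was at 24.2 and 3.3 (-2.55, -5.97 to -0.93), resting on 40 and 2 reads. The homeobox gene Irx5 was at 23.0 and 13.2 (-0.76, -2.11 to 0.32), from 38 and 8 reads. Low counts limit both. These ratios have 1 library per condition and no test.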
